A study of Mus musculus with 6 samples.

Results

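The genes described here encode the proteins of the cytosolic ribosome, as measured in sorted endothelium of smoke-exposed and control mice. Members were all genes whose symbol begins with Rpl or Rps and a number, together with Rplp0, Rplp1, Rplp2 and Rpsa, leaving out the Rps6k kinases and pseudogenes. Only array features with 1 gene symbol were used. This gave 70 members of 11138 named genes, 25 of the small (40S) subunit and 45 of the large (60S) subunit, each with 2 spots on the array. Of these, 63 are proteins of the ribosome proper and 7 are like-named copies of a member. The members lie on 19 chromosomes, with at most 8 on any of them.

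Each of 6 arrays compared 2 RNA samples, with smoke in channel 1 and control in channel 2. The groups were mice exposed for 1 week against control on 3 arrays, of which replicate 1 has the dyes reversed. For mice exposed for 6 weeks, 2 arrays with exchanged dyes used 1-week control and 1 array used 6-week control. The exchanged pair was averaged, so there were 3 replicates at 1 week and 2 at 6 weeks. Strain, age, genotype, the tissue the cells came from, the marker used for sorting and the number or pooling of animals are not given in the sources used here. The p-values therefore measure only the spread between arrays, which may be technical. The age of the control used at 1 week is not given either, and the arrays set against 1-week control may share its RNA.

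A positive log2 ratio is read as likely higher after smoke, because titles list smoke ahead of control and the labels place smoke in channel 1 throughout. This direction is not stated in the files, and neither is whether the submitters had turned the sign of the dye-reversed arrays. All arrays are given with their deposited sign. Ratios carry no expression level, so the presence of endothelial cells could not be checked by level. Of 12 endothelial markers, 11 were measured, and their median log2 ratio was -0.05 at 1 week and -0.32 at 6 weeks. At 1 week 6 had a negative mean and 5 a positive one. At an unadjusted limma p below 0.05, 4 were lower at 1 week, against 3.12% of all tests, and 1 was higher, against 3.53%. In such bulk RNA, fewer cells of a type and less RNA per cell cannot be told apart.

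Most ribosomal proteins are needed in equal numbers, and cells coordinate their synthesis. Their messenger RNAs begin with a tract of pyrimidines, the 5′ terminal oligopyrimidine (TOP) motif, through which the growth-regulating kinase mTORC1 controls their translation. The 40S subunit reads the messenger RNA, and the 60S subunit joins the amino acids and carries the stalk that recruits elongation factors. Free ribosomal proteins such as Rpl5, Rpl11 and Rpl23 can also bind Mdm2, which restrains p53. Mammalian genomes hold many processed copies of these genes, and whether the spots also bound RNA of such copies was not tested.

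After 1 week of smoke, ribosomal protein genes as a group had negative log2 ratios. The mean of the 3 arrays was negative for 54 of 70 members, against 49.7% of all tests. The members' median was -0.35, -0.36 and -0.43 on replicates 1, 2 and 3, while the median over all tests was 0 on each after centring. The log2 ratio was negative on all 3 arrays for 39 members (55.7%), against 12.1% of all tests, and positive on all 3 for 6 members, against 11.7%. A mean below -1 was found for 9 members (12.9%), against 1.53% of all tests. No member had a mean above 1, against 1.9%. These counts depend on the sign of the dye-reversed replicate 1. With that array turned, the mean was negative for 47 members (49.5% of all tests), all 3 arrays were negative for 3 members (4.29%, against 11.1% of all tests), and 0 members had a mean below -1 (1.31% of all tests).

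**Figure D1:**
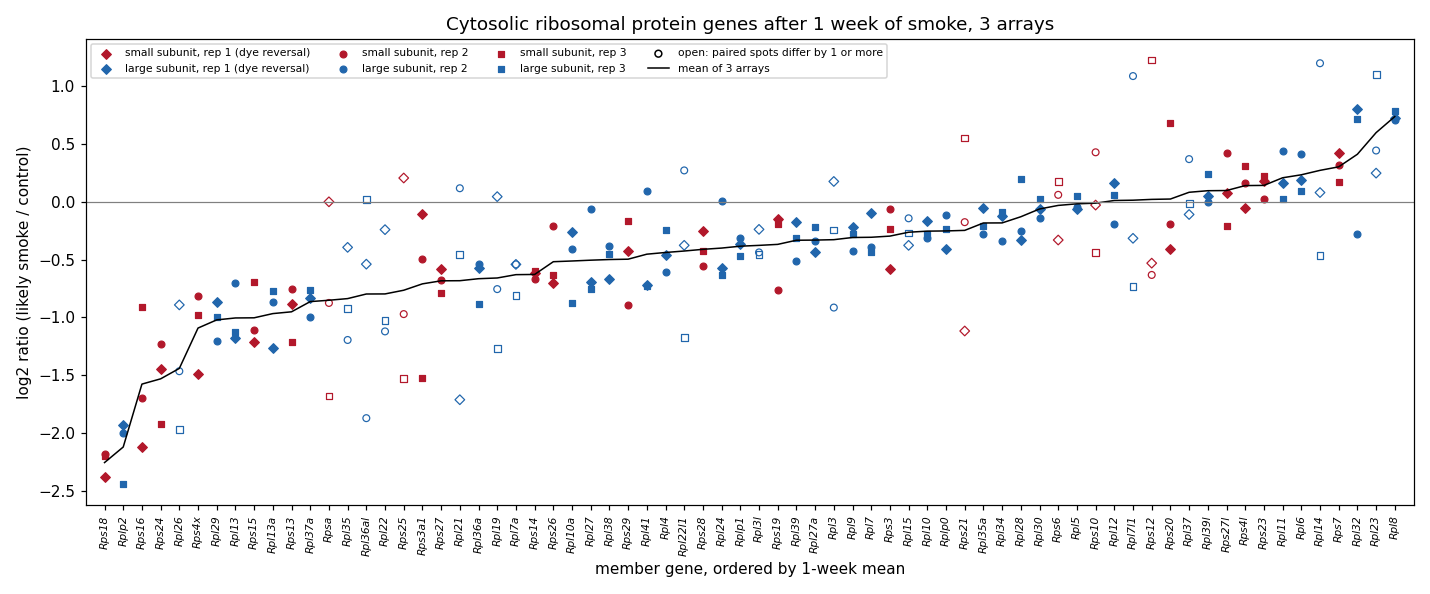
Log2 ratio (likely smoke over control, vertical axis) of each of the 70 members (horizontal axis, ordered by mean) on the 3 arrays of 1-week smoke. Diamonds, circles and squares are replicates 1, 2 and 3, colours mark the subunit, open symbols mark members whose paired spots differed by 1 log2 unit or more on any array, and the line joins the means. Rps18 and Rplp2 lie between -2.44 and -1.93 on every array, and Rpl8 lies between 0.70 and 0.78.

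Over all 19242 tests, no gene passed limma's moderated test with Benjamini-Hochberg adjustment at 1 week (0% of tests at an adjusted p below 0.05). The smallest adjusted p of a member was 0.178, for Rps18. At an unadjusted p below 0.05 there were 25 members, against 6.65% of all tests. Of these, 23 were lower (3.12% of all tests were) and 2 were higher (3.53% were). With both dye-reversed arrays turned there was 1 such member, which was lower, against 733 of 19242 tests in either direction.

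The paired spots of a gene show how well it was measured. Between the 2 spots of a member, the median gap ran from 0.10 to 0.26 log2 units over the 6 arrays, but some pairs stood far apart. Rps12 had spots 7.77 log2 units apart on 1 array and Rpsa 5.81. A gap under 1 log2 unit on each of the 6 arrays ("agreeing spots") was found in 49 members and in 5628 of all named genes. The other 21 members had a median 1-week log2 ratio of -0.38, and 16 of them had a negative mean.

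**Figure D2:**
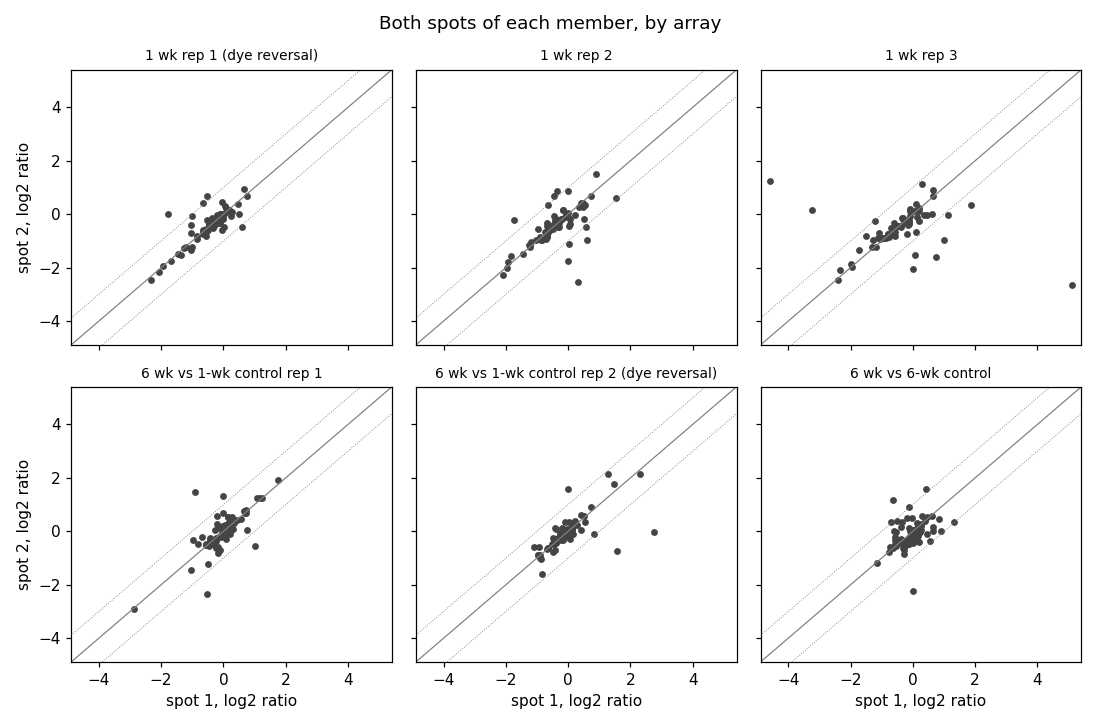
Log2 ratio of spot 1 (horizontal) against spot 2 (vertical) for the 70 members on each of the 6 arrays. The solid line marks equal values and the dotted lines a gap of 1 log2 unit. Most pairs lie between the dotted lines, and on 1-week replicate 3, where the widest gap was 7.77, 9 pairs lie 1 or more apart.

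When only genes with agreeing spots were fitted, 11 of 49 members passed at 1 week (22.4%, limma with Benjamini-Hochberg adjustment over the 5628 genes), against 1.81% of those genes. Among them 10 fell, against 0.8% of genes with agreeing spots, and 1 rose, against 1.01%. Of the 10 that fell, 6 belong to the small subunit and 4 to the large subunit. In what follows, "passed", "fell" and "rose" refer to this fit, while means and standard errors (SE) come from the fit of all tests. The SE is limma's moderated one, from a spread pooled over both exposure times, and n counts the replicates in the mean. It can differ from the spread of the arrays listed beside it.

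In the small subunit, Rps18 had the most negative mean of all members with the deposited signs. It encodes a protein of the 40S head near the contact with the large subunit. Its log2 ratio was -2.38, -2.18 and -2.20 on 1-week replicates 1, 2 and 3. The 3 arrays were close to each other and showed no overlap with any 6-week array. The mean of -2.25 ± 0.16 (SE, n = 3) makes Rps18 4.77-fold lower (limma adjusted p = 0.00104). With the dye-reversed replicate 1 turned its mean was -0.67, and the lowest mean was that of Rps25, at -0.90. The spots of Rps25 differed by up to 3.38 log2 units.

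Rps16 and Rps15 are also proteins of the 40S head, and Rps15 is needed for export of the 40S precursor from the nucleus. Rps16 had log2 ratios of -2.12, -1.70 and -0.91 on 1-week replicates 1, 2 and 3, with a mean of -1.58 ± 0.27 (SE, n = 3, limma adjusted p = 0.0194). Rps15 had -1.21, -1.11 and -0.69, with a mean of -1.003 ± 0.17 (SE, n = 3, limma adjusted p = 0.0243). For both genes replicate 3 was the least negative, and every array was negative.

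Outside the head, Rps24, Rps4x and Rps13 fell. Rps24, a 40S protein whose human counterpart is mutated in Diamond-Blackfan anaemia, had log2 ratios of -1.45, -1.23 and -1.92 on 1-week replicates 1, 2 and 3. Its mean was -1.53 ± 0.21 (SE, n = 3, 2.89-fold lower, limma adjusted p = 0.00927). Rps4x, a 40S protein encoded on the X chromosome, had -1.49, -0.81 and -0.98. Its mean was -1.09 ± 0.19 (SE, n = 3), and replicate 1, the dye reversal, was the lowest (limma adjusted p = 0.0243). Rps13, which lies in the 40S body, had -0.89, -0.76 and -1.21, and its mean was -0.95 ± 0.17 (SE, n = 3, limma adjusted p = 0.0243). In all 3 genes every 1-week array was clearly below 0.

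In the large subunit, Rplp2 stood far below the rest with the deposited signs. Rplp2 is one of the acidic proteins that form the flexible P stalk with Rplp1 on the base protein Rplp0. Its log2 ratio was -1.93, -1.99 and -2.44 on 1-week replicates 1, 2 and 3, a mean of -2.12 ± 0.22 (SE, n = 3) or 4.35-fold lower (limma adjusted p = 0.00451). Its partners were closer to 0. Rplp1 had -0.37, -0.31 and -0.47 (mean -0.38 ± 0.15), and Rplp0 had -0.41, -0.11 and -0.23 (mean -0.25 ± 0.15, SE, n = 3 each). Neither passed, at limma adjusted p = 0.256 for Rplp1 and 0.497 for Rplp0. All 3 proteins were negative on every 1-week array, but the values of Rplp2 did not overlap with those of its partners.

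Rpl29, Rpl13a and Rpl37a are further 60S proteins that fell, and Rpl13a is known in human cells as part of an interferon-induced complex that blocks translation of selected messages. Rpl29 had log2 ratios of -0.87, -1.20 and -0.995 on 1-week replicates 1, 2 and 3, with a mean of -1.02 ± 0.16 (SE, n = 3, limma adjusted p = 0.0194). Rpl13a had -1.27, -0.86 and -0.77, with a mean of -0.97 ± 0.20 (SE, n = 3, limma adjusted p = 0.0355). Rpl37a had -0.83, -0.999 and -0.76, with a mean of -0.86 ± 0.16 (SE, n = 3, limma adjusted p = 0.0276). The 3 genes were alike in size and were negative on all 3 arrays. Rpl13a and Rpl37a fall outside the rule by which genes were chosen to be named, and are named because they complete the set that passed.

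Some members lay just outside the threshold. Rps27, a zinc-binding 40S protein, had a mean of -0.68 ± 0.15 (SE, n = 3) at limma adjusted p = 0.0559. Rpl13 had a mean of -1.004 ± 0.27 (SE, n = 3) and Rpl36a one of -0.66 ± 0.16 (SE, n = 3), both at limma adjusted p = 0.0716. Rpl26, which lies near the exit of the nascent chain, had log2 ratios of -0.89, -1.46 and -1.97 on 1-week replicates 1, 2 and 3 and a mean of -1.44 ± 0.29 (SE, n = 3), but its spots differed by up to 1.78 log2 units and it was not in the fit of agreeing spots.

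The 1 member that rose was Rpl8, a 60S protein close to the centre where peptide bonds form. Its log2 ratio was 0.72, 0.70 and 0.78 on 1-week replicates 1, 2 and 3, a mean of 0.74 ± 0.14 (SE, n = 3) or 1.67-fold higher (limma adjusted p = 0.0385). The 3 arrays were close to each other. Rpl8 did not pass in any of the further fits of agreeing spots. These turned dye-reversed arrays, left arrays out, added a dye term or took each array as its own replicate. Rpl23, a 60S protein at the subunit interface, had 0.25, 0.44 and 1.10, with spots that differed by up to 1.52 log2 units. Rps7, a 40S protein that binds Mdm2, had 0.42, 0.32 and 0.17 (limma adjusted p = 0.412), and Rpl32 had 0.80, -0.28 and 0.71 (limma adjusted p = 0.476). These last 2 did not pass, and Rpl32 was not of one sign.

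The sequences around the annotated start of transcription are shown for some members that fell and for 1 that did not. Only windows in which a pyrimidine tract was found were printed, so they do not show how often it is present. The windows run from 10 bases before to 20 bases after the RefSeq start in build GRCm38.p6, and the capitals mark the tract, read as a C followed by at least 4 further C or T letters and beginning within 10 bases of the start. Where several runs meet this, as in Rps18, the longest is in capitals. Rps18 lies on the minus strand at chr17:33955646-33955675, Rplp2 on the plus strand at chr7:141447641-141447670, Rps24 on the plus strand at chr14:24490668-24490697 and Rpl13a on the minus strand at chr7:45128726-45128755. Rps7, shown as a member with positive ratios at 1 week, lies on the minus strand at chr12:28635934-28635963.
Rps18: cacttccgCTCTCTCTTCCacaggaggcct
Rplp2: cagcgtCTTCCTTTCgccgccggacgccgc
Rps24: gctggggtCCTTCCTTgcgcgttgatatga
Rpl13a: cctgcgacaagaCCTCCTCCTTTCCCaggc
Rps7: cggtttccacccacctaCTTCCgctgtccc

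The 5 windows were chosen among those that hold a tract, and the length of the tract was not compared with the ratios. RefSeq windows were at hand for 58 of 70 members, and 33 of these (56.9%) held such a tract, against 34.4% of 27025 genes. The median 1-week log2 ratio was -0.33 for the 33 members with the tract and -0.45 for the 25 without it. The tract was searched on the strand of the gene only, and an annotated start can differ from the start used in these cells.

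Many promoters of housekeeping genes hold the letters CTTCCG or, on the other strand, CGGAAG, the core bound by factors of the ETS family such as GABP. In the window from 250 bases before to 50 bases after the start, searched on both strands, 40 of 58 members (69.0%) held it, against 18.8% of the same 27025 genes. The median 1-week log2 ratio was -0.42 for the 40 members with it and -0.37 for the 18 without it. Its first letters also fit the pyrimidine tract, as in Rps7. The 80 bases before the start are shown for 3 genes that fell, with these letters in capitals. Rps18 lies on the minus strand at chr17:33955666-33955745, Rps15 on the plus strand at chr10:80292351-80292430 and Rpl37a on the plus strand at chr1:72711180-72711259 (GRCm38.p6).
Rps18: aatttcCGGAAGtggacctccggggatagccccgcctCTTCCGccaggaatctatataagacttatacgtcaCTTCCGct
Rps15: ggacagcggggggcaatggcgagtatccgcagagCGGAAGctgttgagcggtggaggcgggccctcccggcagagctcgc
Rpl37a: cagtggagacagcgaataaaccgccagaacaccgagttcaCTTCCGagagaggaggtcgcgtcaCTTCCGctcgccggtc
A match of letters is a description of the window and no measure of binding.

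The median of the small subunit was below that of the large subunit at 1 week by an amount that depended on the members taken. Among members with agreeing spots, the 19 of the small subunit had medians of -0.58, -0.66 and -0.60 on replicates 1, 2 and 3, and the 30 of the large subunit had -0.30, -0.32 and -0.28. Over all members the medians were -0.43, -0.63 and -0.43 for the 25 of the small subunit and -0.32, -0.32 and -0.43 for the 45 of the large subunit. The difference of small minus large was thus -0.11, -0.32 and -0.00 over all members. At 6 weeks the medians of members with agreeing spots were 0.04, -0.13 and -0.06 for the small subunit, against 0.03, -0.21 and -0.07 for the large subunit, on the 2 arrays against 1-week control and the array against 6-week control. The ranges of single genes in both subunits overlapped widely on every array, and the difference between subunits was not tested.

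**Figure D3:**
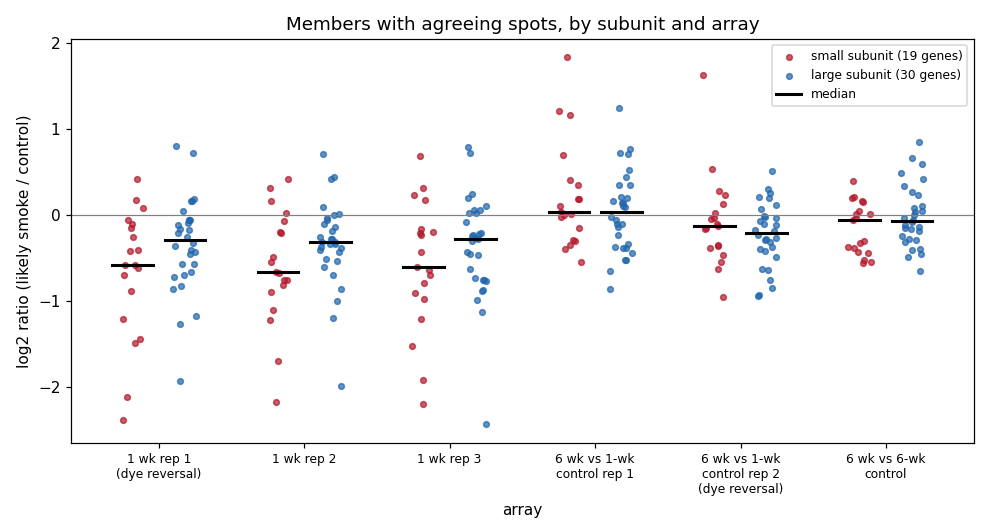
Log2 ratio (likely smoke over control, vertical axis) of the 49 members with agreeing spots on each of the 6 arrays (horizontal axis), small subunit in red to the left of large subunit in blue, with bars at the medians. On the 3 arrays of 1-week smoke the small-subunit medians lie between -0.66 and -0.58 and the large-subunit medians between -0.32 and -0.28, and on the 3 arrays of 6-week smoke all medians lie between -0.21 and 0.04.

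Members were also described by their site at 1 week, and differences between sites were not tested. The 11 proteins of the 40S head had median log2 ratios of -0.43, -0.76 and -0.43 on replicates 1, 2 and 3, and the 12 other 40S proteins that are not copies had -0.60, -0.58 and -0.71. The order of these 2 groups on replicate 2 was the reverse of that on the other arrays. The 4 proteins around the exit of the nascent chain, Rpl19, Rpl26, Rpl35 and Rpl39, had medians of -0.28, -0.97 and -1.09, and only Rpl39 among them had agreeing spots. Rpl5 and Rpl11, which carry the 5S ribosomal RNA and hold Mdm2, had means of -0.02 ± 0.15 and 0.21 ± 0.21 (SE, n = 3 each). For 14 members the human counterpart was listed here as mutated in Diamond-Blackfan anaemia, and the list may not be complete. Their median was -0.39, and 12 of them had a negative mean.

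The like-named copies had median log2 ratios of -0.24, 0.16 and -0.21 on 1-week replicates 1, 2 and 3, and the 63 members of the ribosome proper had -0.38, -0.39 and -0.43. The median of the copies was thus above that of the other members on each array, but below 0 on replicates 1 and 3. None of the 7 copies passed, and 3 of them had agreeing spots. Rps4l had a mean of 0.14 ± 0.16 and its parent Rps4x one of -1.09 ± 0.19. Rps27l, a p53 target in human cells, had 0.10 ± 0.19 and Rps27 had -0.68 ± 0.15. Rpl39l, known from the male germ line, had 0.10 ± 0.16 and Rpl39 had -0.33 ± 0.16 (SE, n = 3 each). In these 3 pairs, with agreeing spots in both genes, the copy lay above its parent. The other 4 copies had spots that differed by more than 1 log2 unit. Rpl22l1 stood at -0.43 beside Rpl22 at -0.80, Rpl36al at -0.80 beside Rpl36a at -0.66, Rpl3l at -0.38 beside Rpl3 at -0.33 and Rpl7l1 at 0.01 beside Rpl7 at -0.31.

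The order of the members with agreeing spots was much alike on the 3 arrays of 1-week smoke, with the deposited signs. Across the 49 members with agreeing spots, Pearson's r was 0.836 between replicates 1 and 2, 0.814 between replicates 1 and 3 and 0.763 between replicates 2 and 3. Across all 5628 genes with agreeing spots the same pairs gave 0.184, 0.231 and 0.386. Across all 70 members they gave 0.594, 0.553 and 0.566, and across all tests 0.031, 0.055 and 0.069. Turning the dye-reversed replicate 1 would make r between it and the other arrays negative. Genes are not independent replicates, and the arrays may share RNA, so these are descriptions. Spots within 10 features of a member's spot in the file's order had medians between -0.06 and 0 on the 6 arrays, where the member spots had medians between -0.38 and 0.

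The 1-week values rest on the sign of replicate 1, the dye reversal. With both dye-reversed arrays turned, the members' 1-week median was -0.13 and 0 members with agreeing spots passed. With the 4 arrays that have no dye reversal, 2 passed, Rps18 and Rplp2. Leaving out 1-week replicate 1, 2 or 3 in the fit of agreeing spots left 5, 3 and 1 members that passed, and Rps18 passed each time.

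At 6 weeks the median of the members was close to 0, while the means of single members ran from -0.89 to 0.65. The mean was negative for 46 of 70 members, against 48.7% of all tests, with a median of -0.08. The members' median was 0.02 and -0.11 on the 2 arrays against 1-week control and -0.06 on the array against 6-week control. Between the 2 arrays against 1-week control, which were averaged, Pearson's r was 0.075 across all 70 members and 0.484 across the 49 with agreeing spots. It was -0.014 across all tests and 0.046 across the 5628 genes with agreeing spots. Turning the dye-reversed array would reverse the sign of each r. No test passed limma's adjusted threshold over all tests (0%), and 2 members had an unadjusted p below 0.05, against 4.12% of all tests. With agreeing spots 0 of 49 members passed, against 0.213% of genes, and 5 had an unadjusted p below 0.05, against 7.75%.

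Rplp0, the base of the stalk, had the smallest unadjusted p at 6 weeks (0.0402). Its log2 ratio was -0.38 and -0.64 on the arrays against 1-week control and -0.49 on the array against 6-week control, a mean of -0.50 ± 0.19 (SE, n = 2). All 6 arrays were negative for this gene, at -0.41, -0.11 and -0.23 on the 1-week arrays. Rpl19, at the tunnel exit, had -0.30, -0.93 and -1.17 on the same 3 arrays of 6-week smoke, with spots that differed by up to 1.08 log2 units. Rps26, which contacts the messenger RNA at the exit site, had -0.55, -0.36 and -0.43, and Rps15 had -0.15, -0.55 and -0.56. None of the 4 passed.

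Positive values at 6 weeks were found in other members. Rpl10a, a 60S protein at the L1 stalk, had log2 ratios of 0.35 and 0.21 on the arrays against 1-week control and 0.85 on the array against 6-week control. Rpl7 had 0.72, 0.11 and 0.49, and Rpl27a had 0.14, 0.30 and 0.59. These 3 genes were positive on each 6-week array and negative on each 1-week array. Rps21 had 0.22, 0.37 and 1.00, with spots that differed by up to 1.56 log2 units. None of the 4 passed.

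The 2 exposure times were set against each other in the same fit. The 6-week minus 1-week difference was negative for 20 of 70 members, against 50.1% of all tests, and its median over members was 0.38. No test passed limma's adjusted threshold over all tests or with agreeing spots (0% in both). At an unadjusted p below 0.05 there were 13 members over all tests, against 3.55% of tests, and 12 of these were higher at 6 weeks, against 1.72%. With both dye-reversed arrays turned there was 1 such member, which was lower at 6 weeks, against 397 of 19242 tests in either direction. For 24 members (34.3%), all 3 values at 6 weeks lay above all 3 values at 1 week, against 4.39% of all tests. With both dye-reversed arrays turned this held for 0 members, against 3.35% of all tests. Of the members with agreeing spots this held for 21 of 49 (42.9%), against 5.6%. The reverse held for 2 members, Rpl8 and Rpl23, against 4.74% of all tests. The arrays against 1-week control may share control RNA with the 1-week arrays.

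Rps18 had the largest difference with the deposited signs. Its log2 ratio at 6 weeks was 0.00 and -0.63 against 1-week control and 0.05 against 6-week control, a mean of -0.13 ± 0.20 (SE, n = 2). The difference of 6 weeks minus 1 week was 2.12 ± 0.25 (SE), at limma adjusted p = 0.0704 with agreeing spots. With both dye-reversed arrays turned it was 0.85, and that of Rplp2 was 0.91. No 6-week array came near the 1-week values of -2.38 to -2.18.

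Other members that fell at 1 week also had values nearer 0 at 6 weeks. Rplp2 had -0.65 and -0.94 on the arrays against 1-week control and 0.00 on the array against 6-week control, and a difference of 1.72 ± 0.35 (SE). Rps24 had 0.69, -0.36 and -0.30 on the same arrays, and a difference of 1.46 ± 0.33 (SE). Rps13 had 0.10, -0.04 and 0.16, and a difference of 1.04 ± 0.26 (SE). For each of these 3 genes the 6-week arrays lay above all the 1-week arrays, but limma's adjusted p for the difference was 0.233 for Rplp2, 0.289 for Rps24 and 0.352 for Rps13 with agreeing spots.

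Rps16 had -0.39 and -0.38 on the arrays against 1-week control and 0.15 on the array against 6-week control. Rps4x had -0.36, -0.11 and 0.01, and Rpl13a had 0.52, 0.06 and -0.31. The 3 genes spread to both sides of 0 or near it at 6 weeks. Rpl8, which rose at 1 week, had 0.10, -0.38 and -0.15 at 6 weeks, below all its 1-week values, and a difference of -0.88 ± 0.23 (SE, limma adjusted p = 0.405).

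Besides Rpl8, 3 members were named for a negative difference, and none of them passed. Rpl23 had 0.02, 0.06 and 0.01 at 6 weeks and a difference of -0.58 ± 0.34 (SE). Rps10, a 40S head protein, had -1.23, -1.22 and -0.17 at 6 weeks and a difference of -0.68 ± 0.44 (SE), with spots up to 2.37 log2 units apart. Rps27l had 0.04, -0.47 and -0.55 at 6 weeks and a difference of -0.48 ± 0.30 (SE). Rpl23 lay below all its 1-week values, while those of Rps10 and Rps27l overlapped with theirs.

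**Figure D4:**
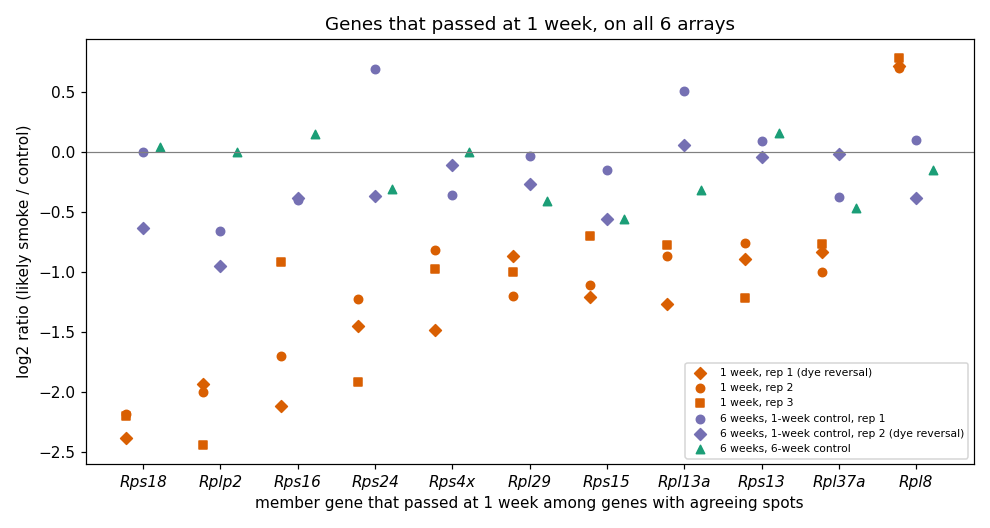
Log2 ratio (likely smoke over control, vertical axis) of the 11 members that passed at 1 week among genes with agreeing spots (horizontal axis), on all 6 arrays. Orange is 1 week, purple 6 weeks against 1-week control and green 6 weeks against 6-week control, with diamonds for dye-reversed arrays. In the 10 genes that fell the 1-week points lie at or below -0.69 and below every 6-week point of the same gene, and Rpl8 is the reverse.

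Over both exposure times, 8 members were negative on all 6 arrays (11.4%), against 2.35% of all tests, and 1 member with both dye-reversed arrays turned, against 2.68%. With the deposited signs they were Rpl29, Rps15, Rpl37a, Rpl36a, Rpl7a, Rps26, Rpl27 and Rplp0. Rpl23 alone was positive on all 6, against 2.21%. Rps15 at -1.003 and -0.45 and Rpl29 at -1.02 and -0.28 (1-week and 6-week means) had the most negative means of both times among them. In the mean of both times, 6 of 49 members with agreeing spots passed, namely Rps18, Rplp2, Rps24, Rps15, Rpl29 and Rpl37a, against 1.83% of genes, while no test passed over all tests (0%). With the 6-week or both dye-reversed arrays turned, 0 of the 49 passed in the mean of both times.

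Other genes of translation did not all lie to the same side at 1 week. Fau, whose product is processed to the 40S protein Rps30 and whose symbol the rule misses, had log2 ratios of -0.39, -0.78 and -1.39 (limma adjusted p = 0.0766 with agreeing spots). The 66 mitochondrial ribosomal protein genes had a median of -0.08 with 44 negative, where 49.7% of all tests were negative. Their medians were -0.18, -0.12 and -0.19 on replicates 1, 2 and 3. At an unadjusted limma p below 0.05, 9 were lower, against 3.12% of all tests, and 1 was higher, against 3.53%. Of 27 with agreeing spots 0 passed, against 1.81% of genes with agreeing spots. The 43 genes with Eif or Eef symbols are translation initiation and elongation factors and some kinases, methyltransferases and binding proteins that act on them. Their median was 0.04 with 20 negative. Among 27 with agreeing spots 2 fell, against 0.8% of genes with agreeing spots, and 1 rose, against 1.01%. Eif3k, a subunit of initiation factor eIF3, fell by 1.30, Eef1b2, the nucleotide exchange factor of eEF1A, fell by 0.73, and Eif4g2, which initiates translation without the cap-binding protein, had a mean of 0.96.

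Other messages known to carry the pyrimidine tract lay on both sides of 0 at 1 week. The 12 measured had a median log2 ratio of -0.10 with 6 negative. Among 8 with agreeing spots 2 fell, against 0.8% of genes with agreeing spots, and 0 rose, against 1.01%. The 2 that fell were Eef1b2 and Naca, a subunit of the complex that binds nascent chains. Naca had -1.23, -0.55 and -1.26 on 1-week replicates 1, 2 and 3 (mean -1.01, limma adjusted p = 0.0305). Tpt1 had a mean of -1.02 and Nap1l1 one of 0.82, and neither passed. The 6-week minus 1-week difference of these 12 genes had a median of 0.48, with 3 negative. For the 70 members it was 0.38, with 20 negative. At an unadjusted limma p below 0.05, 4 of the 12 were higher at 6 weeks, against 1.72% of all tests, and 0 were lower. None passed in the difference. The 19 measured genes of ribosome biogenesis had a 1-week median of -0.11. Among 12 with agreeing spots 0 fell, against 0.8% of genes with agreeing spots, and 1 rose, against 1.01%. The gene that rose was Dkc1, the pseudouridine synthase of ribosomal RNA, with a mean of 0.99. The 10 regulators of ribosomal protein synthesis had a 1-week median of -0.04, and none of the 7 with agreeing spots passed, against 1.81% of genes.

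Markers of other cell types were measured on the same arrays. Of 7 fibroblast genes at 1 week, 4 had a negative mean and 3 a positive one. Their median was -0.49, with array medians of -0.72, -0.39 and 0.02 on replicates 1, 2 and 3. Among 5 with agreeing spots 1 fell, against 0.8% of genes with agreeing spots. It was Dpt, with a mean of -1.33. The medians of the macrophage, lymphocyte, smooth muscle, epithelial and erythroid lists were -0.19 (8 genes), -0.22 (6 genes), -0.09 (5 genes), 0.08 (6 genes) and 0.34 (2 genes), with no gene with agreeing spots that passed. The part of other cell types in the members' ratios was not tested.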

How the data were processed

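The authors deposited log2 ratios of 32448 features from 6 two-channel arrays, per the file headers. The values are log2 of folds in whole hundredths for 100% of values on 5 arrays and 99.99% on 1-week replicate 2, to within 0.02 of a hundredth. Each deposited column has a median of 3e-07. Dye, scanner, background correction, normalization, log base and direction are not given in the sources used here, so how they affect the ratios is unknown, and intensities were not used here. No slide or scan batch is given.

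Each array was rounded to 5 decimals, which removes that offset, and centred on its median. Spots were averaged per gene through a probe table of single symbols, which paired 24344 features with 1 symbol and 98 with several, and left 8006 unnamed. There were 11138 named genes and 8104 features tested alone. Of 70 members, 69 matched RefSeq by Entrez identifier, and 3 ribosomal protein entries with several symbols were left out. The model (limma 3.58.1, R 4.3.3, lmFit and eBayes) used all 5 replicates and had 3 residual and 2.39 prior degrees of freedom. Tests were two-sided, and Benjamini-Hochberg adjustment ran over 19242 tests at a threshold of 0.05. The restriction to agreeing spots (limit 1 log2 unit, 5628 genes, prior degrees of freedom 5.61) was an alternative. The code was tested on simulated data. The number of arrays limits the precision.

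The members, gene lists and tests were chosen with earlier results of these data known. Genes given with values on all arrays were the 8 members with the smallest p and the 4 positive ones with the smallest p at 1 week, 4 of each sign at 6 weeks and in the difference, the stalk proteins, and copies beside their parents. Any other gene named was picked with its values in view. Alternatives changed the sign of dye-reversed arrays, the dye term, centring, scaling, spot summary, variance model and arrays in the fit.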

Additional observations from a re-analysis of the deposited data

Results flagged for a closer look

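For 3 of 70 members (4.29%) every 1-week array had one sign and every 6-week array the other, against 1.85% of all tests. The difference was chosen for these opposite signs and was not tested further. All 3 encode 60S proteins and were negative at 1 week and positive at 6 weeks. Rpl10a had means of -0.51 at 1 week and 0.56 at 6 weeks, a difference of 1.08. Rpl7 had means of -0.31 and 0.45, a difference of 0.76. Rpl27a had means of -0.33 and 0.41, a difference of 0.74. With the 6-week dye reversal turned, the 6-week arrays of these genes are no longer of one sign.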

How the results depend on the processing

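No paired analysis was possible because replicate numbers were given in accession order and pair no samples. Over 30 named results, 774 of 825 values under an alternative kept their direction and their side of the threshold, 47 passed under the alternative only, and 4 changed sign. These 4 are Rpl32 (-0.1225) and Rplp0 (0.02205) at 1 week with both dye reversals turned, in all tests and with agreeing spots alike. No named result passed in the main fit, so keeping the side of the threshold means that a value still did not pass. The count ignores changes in size, and some alternatives cannot change a given mean, so it is no measure of stability.

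Over all tests, leaving out each array gave 0 to 0 members that passed in each comparison, and no alternative over all tests gave any. With agreeing spots, 11 members passed at 1 week and 6 in the mean of both times. Combined with agreeing spots after seeing the data, 10 passed at 1 week with the 6-week dye reversal turned, with a dye term and with each array as its own replicate, where 1 (Rps18) passed in the difference, and 0 passed at 1 week with both turned. The mean of both times gave 8 with a dye term or with each array as its own replicate, and 0 with the 6-week or both dye reversals turned. The 4 arrays without dye reversal gave 2 at 1 week and 2 in the mean of both times. Leaving out 1-week replicates 1, 2 and 3 gave 5, 3 and 1 at 1 week and 5, 2 and 2 in the mean of both times. In none of these combined fits did Rpl8 pass at 1 week.

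The members' 1-week median ran from -0.41 to -0.3421 when each array was left out, and was -0.1271 with both dye reversals turned, -0.1225 with agreeing spots as well, and -0.3316 with agreeing spots without 1-week replicate 3. The small minus large difference at 1 week ran from -0.1639 to -0.08355. The 6-week median ran from -0.1014 to -0.04971 with each array left out. It was -0.003458 with the 6-week or both dye reversals turned, -0.04971 with the 4 unreversed arrays, -0.05201 with the first or median spot, -0.05059 with a dye term and -0.05742 without the arrays against 1-week control. With agreeing spots it was 0.04204 with either turn, -0.003938 with the 4 unreversed arrays, -0.1076 with a dye term and -0.09405 with each array its own replicate.

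The small minus large difference at 6 weeks ran from -0.03314 to 0.05603 with each array left out. It was -0.001364 with either turn, 0.001745 with the 4 unreversed arrays, 0.03049 with each array its own replicate, 0.03194 with the first or median spot, 0.03305 with a dye term and -0.00236 without the arrays against 1-week control. With agreeing spots it was -0.00966 with either turn, -0.005675 with the 4 unreversed arrays, 0.07592 with a dye term and 0.04928 with each array its own replicate. It thus has no settled sign. The cause of these shifts was not tested. Signal over background was not assessed, so what dim spots limit is unknown.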
